A study of Homo sapiens with 12 samples.

Results

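The circadian regulators described here are 10 genes: the paralogs BHLHE40 and BHLHE41 and the clock genes PER1, PER2, PER3, CRY1, CRY2, CLOCK, NR1D1 and NR1D2. They were chosen by name after BHLHE41 had been seen to be silent in HMC-1.2, so its level there is a description. All other comparisons with HMC-1.2 are description too, and no p-value is given for them. All 10 were found by symbol among the 58381 genes of the count table, and all 10 were among the 15944 genes with enough counts to be tested.

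HMC-1 is a human mast cell line from a patient with mast cell leukemia, and its sublines grow with constitutively active KIT, the receptor for stem cell factor. Polyadenylated RNA was sequenced from HMC-1.1, which carries V560G-KIT, from HMC-1.2, which carries V560G- and D816V-KIT, and from HMC-1.3 clone 1 and HMC-1.3 clone 2, in which V560G was edited back in HMC-1.2 so that D816V remains. There were 3 libraries in each of the 4 groups, all from cells in the same serum-containing medium with no treatment. Each HMC-1.3 group is a single clone, the cells were plated in triplicate wells, and p-values therefore measure only the spread between these libraries, which may be technical. The KIT genotype of the libraries was not checked here. All groups were harvested without a time course, so a different level and a different phase of a rhythm cannot be told apart, and in bulk RNA neither can fewer expressing cells and less RNA per cell.

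Total expected counts ran from 29225900 to 43181402 per library. Of 10 mast cell markers, KIT (346 to 469 FPKM), the histidine decarboxylase gene HDC (814 to 1037 FPKM) and GATA2 (212 to 247 FPKM) were high in all 12 libraries, whereas the IgE receptor subunits FCER1A (0.12 to 1.27 FPKM) and MS4A2 (0.06 to 0.45 FPKM) were near 0. Of the 6 markers of other cell types, HBB reached 3.26 FPKM and none of the others exceeded 0.31 FPKM. The summed FPKM of the mast cell markers was 2275 to 2310 in HMC-1.2 and 1571 to 1683 in the other groups, and that of the other markers 0.73 to 0.87 and 1.92 to 3.39. Most of the gap between the mast cell sums was 1 gene, the tryptase gene TPSAB1, with 573 to 607 FPKM in HMC-1.2 and 27.6 to 45.2 FPKM elsewhere. Of the 10 mast cell markers, 4 lay in HMC-1.2 above all other libraries (TPSAB1, TPSB2, HDC and MS4A2), 4 below them (KIT, GATA2, MITF and CPA3) and 2 overlapped them. Separation from HMC-1.2 was common among the 15944 genes tested. Taken pair by pair and scaled for library size, 56% to 64.2% of them had no overlap between HMC-1.2 and another group. TPSAB1 and TPSB2 are near-identical, so the split of reads between them is uncertain. The part of these markers in the differences from HMC-1.2 was not tested.

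In the mammalian clock, CLOCK and ARNTL (BMAL1) bind E boxes and drive PER, CRY and NR1D genes, whose products in turn repress CLOCK-ARNTL or, for the NR1D (REV-ERB) receptors, the ARNTL gene itself. BHLHE40 (DEC1) and BHLHE41 (DEC2) are basic helix-loop-helix repressors that bind the same E boxes and are themselves clock targets, so they form a further loop. BHLHE40 is also induced by growth factor, hypoxia and immune signals, and it controls cytokine production in several kinds of immune cell.

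The promoters of the paralogs are shown because BHLHE40 had the highest and BHLHE41 the lowest median FPKM of the 10 genes (61.5 and 0.385). Both hold the E box that CLOCK-ARNTL and the BHLHE repressors recognize, and its part in these levels was not tested. The sequences are RefSeq's, on GRCh38.p14, read 5′ to 3′ on the strand of the gene. Each gives the 250 bases before the start of the gene's RefSeq transcript, with the E box CACGTG in capitals. BHLHE41 lies on the minus strand at chr12:26120030-26125037 and BHLHE40 on the plus strand at chr3:4979437-4985323.
BHLHE40, chr3:4979187-4979436, plus strand: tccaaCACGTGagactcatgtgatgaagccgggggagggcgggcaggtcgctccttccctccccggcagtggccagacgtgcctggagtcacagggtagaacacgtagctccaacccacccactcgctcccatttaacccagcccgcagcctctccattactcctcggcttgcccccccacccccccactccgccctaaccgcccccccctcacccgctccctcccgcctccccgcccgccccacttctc
BHLHE41, chr12:26125038-26125287, minus strand: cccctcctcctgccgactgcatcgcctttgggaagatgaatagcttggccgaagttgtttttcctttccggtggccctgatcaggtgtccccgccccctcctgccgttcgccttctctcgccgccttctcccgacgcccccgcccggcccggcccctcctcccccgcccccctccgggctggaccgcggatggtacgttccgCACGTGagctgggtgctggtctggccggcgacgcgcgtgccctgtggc
The BHLHE40 window has 68.4% G and C and 16 CpG, and its E box begins 245 bases before the start. The BHLHE41 window has 70.4% G and C and 26 CpG, and its E box begins 48 bases before the start.

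NR1D2 and PER1 are the other members with an E box in such a window. They are shown because NR1D2 varied among all 4 groups and PER1 stood apart in HMC-1.2 when scaled for library size only. The windows are 30 bases wide.
NR1D2, E box 155 bases before the start, chr3:23945954-23945983, plus strand: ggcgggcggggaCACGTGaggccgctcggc
NR1D2, E box 105 bases before the start, chr3:23946004-23946033, plus strand: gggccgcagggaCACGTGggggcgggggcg
PER1, E box 173 bases before the start, chr17:8152560-8152589, minus strand: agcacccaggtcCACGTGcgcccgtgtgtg
CACGTG, which reads the same on both strands, was thus found in 4 of 10 members and in 7.73% of the 27305 genes with RefSeq windows of 250 bases (14 windows for the 10 members). The related E prime box, CACGTT on either strand, was found in 5 of 10 members (PER2, CRY1, CRY2, CLOCK and NR1D1) and in 5.53% of genes. Neither was found in the PER3 window. TGACGT, the start of a cAMP response element, was found in NR1D2 only (8.62% of genes), and the nuclear receptor site AGGTCA in CRY2 and PER1 (14.6% of genes). A match is a description of these letters and not a bound site.

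BHLHE41 was all but absent from HMC-1.2 and differed among the other sublines. Its expected counts were 30, 22 and 28 in HMC-1.1, 0, 1 and 0 in HMC-1.2, 53, 49 and 50 in HMC-1.3 clone 1, and 171, 212 and 274 in HMC-1.3 clone 2. No library of any group overlapped a library of another. Scaled for library size, these were 0.796, 0.605 and 0.732 CPM (counts scaled to a fixed library size after TMM normalization) in HMC-1.1, 1.46, 1.31 and 1.42 CPM in clone 1, and 5.0, 5.44 and 6.34 CPM in clone 2. The single count in HMC-1.2 allows, with an exact Poisson interval at the 95% level, up to 5.57 counts summed over its 3 libraries, for counting error only. Against a floor of 3 counts per library (0.103 CPM in the shallowest HMC-1.2 library), the level was at least 6.87-fold higher in HMC-1.1, at least 13.5-fold higher in clone 1 and at least 54.0-fold higher in clone 2.

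Among the 3 sublines outside HMC-1.2, differences in BHLHE41 were tested by edgeR's quasi-likelihood test, with p-values adjusted over all genes tested. Calls required more than 1.5-fold besides an adjusted p below 0.05. BHLHE41 was higher in clone 2 than in HMC-1.1, by 2.97 ± 0.19 (log2, SE; adjusted p = 1.7e-09). The clones themselves differed by 2.00 ± 0.17 on the log2 scale, clone 2 being the higher (adjusted p = 4.6e-08). Clone 1 exceeded HMC-1.1 by 0.97 ± 0.21 (adjusted p = 0.0041). The call in clone 1 rests on 152 counts against 80, and it was lost in a test against the 1.5-fold threshold itself and with limma on log2(FPKM + 1), where the difference was 0.39. Over the 16 alternatives its adjusted p ran from 7.3e-04 to 1.

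BHLHE40, by contrast, was the most abundant of the 10 transcripts per length in every library and varied little. Its levels were 189, 198 and 193 CPM in HMC-1.1, 180, 178 and 175 CPM in HMC-1.2, 198, 186 and 192 CPM in clone 1, and 203, 205 and 194 CPM in clone 2. HMC-1.2 lay below every other library, with the other 3 groups overlapping. The log2 differences from HMC-1.2 were small, with 0.12 ± 0.03 for HMC-1.1, 0.11 ± 0.03 for clone 1 and 0.18 ± 0.03 for clone 2 (SE). Between the other groups no difference passed the test, and the 95% intervals of the log2 differences reached from -0.07 to 0.06 for clone 1 against HMC-1.1, from -0.01 to 0.13 for clone 2 against HMC-1.1 and from -0.13 to 0.01 for clone 1 against clone 2.

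In FPKM, which allow genes to be compared per length, BHLHE40 stood at 55.3 ± 0.62 in HMC-1.2, against 61.6 ± 1.2 (HMC-1.1), 62.3 ± 2.9 (clone 1) and 63.8 ± 1.7 (clone 2; all SD, n = 3). BHLHE41 reached 0.396% ± 0.17 of the BHLHE40 level in HMC-1.1, 1.05% ± 0.55 for clone 1 and 2.66% ± 0.18 for clone 2. In HMC-1.2 BHLHE41 was listed at 0, 0.01 and 0 FPKM. The spread in clone 1 was larger in FPKM than in counts, as its libraries had 53, 49 and 50 counts and 0.41, 0.99 and 0.54 FPKM. FPKM per CPM of BHLHE41 varied 2.77-fold over the 9 libraries with at least 10 counts, and that of BHLHE40 1.07-fold over 12 libraries. RSEM takes the length from its estimate of the mix of transcripts. The ranking of the groups for BHLHE41 did not depend on it, since CPM gave the order clone 2, clone 1, HMC-1.1, HMC-1.2 as FPKM did.

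**Figure D1:**
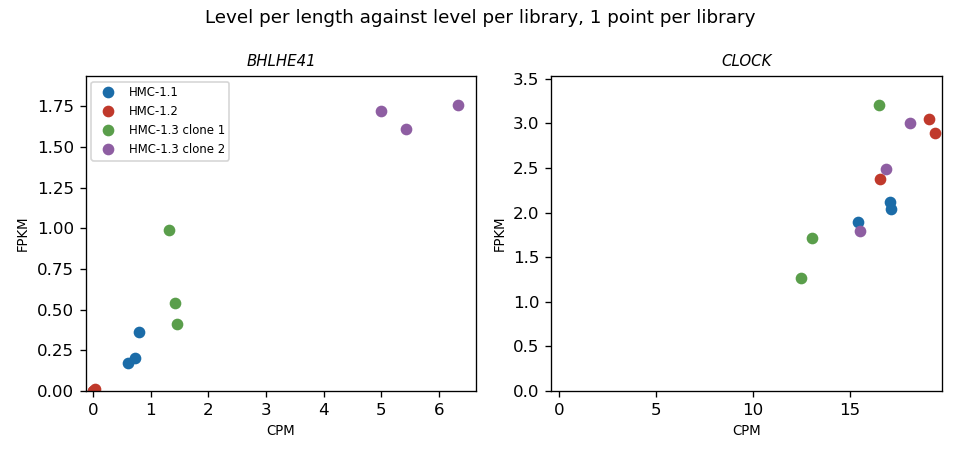
Level per length (FPKM, vertical axis) against level per library size (CPM, horizontal axis) for BHLHE41 and CLOCK, with 1 point per library coloured by subline. The clone 1 libraries lie between 1.31 and 1.46 CPM for BHLHE41 but between 0.41 and 0.99 FPKM, and CLOCK values also spread in FPKM at similar CPM.

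**Figure D2:**
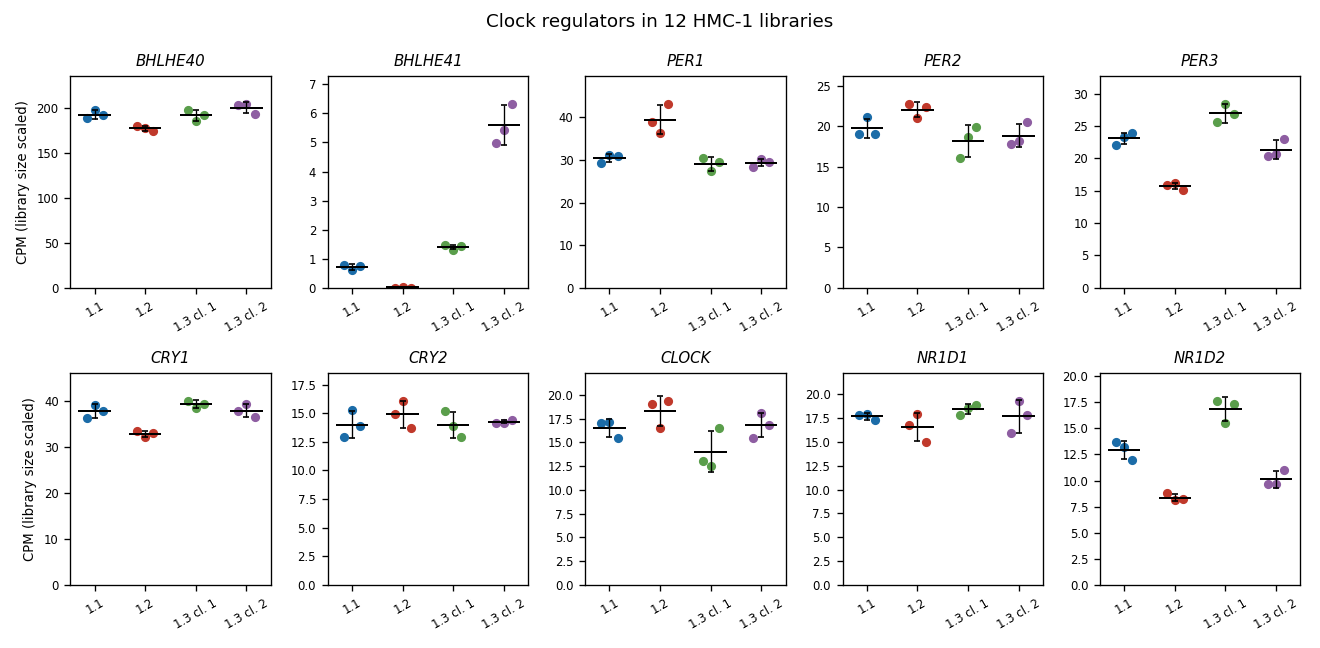
Level of the 10 genes in each library (CPM, linear axes from 0), with points for libraries, horizontal lines for group means and bars for the SD over 3 libraries; 1.1, 1.2, 1.3 cl. 1 and 1.3 cl. 2 stand for the sublines. BHLHE41 was between 0 and 0.0330 CPM in HMC-1.2 and between 5.0 and 6.34 CPM in clone 2, while BHLHE40 kept between 175 and 205 CPM.

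The genes around BHLHE41 were silent or nearly so, except ITPR2. Its mean was also lowest in HMC-1.2, but the other groups stood in another order. Of the 4 protein-coding genes with a span within 500 kb, the sarcospan gene SSPN, which overlaps BHLHE41 on the opposite strand, and LMNTD1 had 0 counts in all 12 libraries. RASSF8 had at most 9 counts. ITPR2, an inositol trisphosphate receptor gene whose start lies 708157 bases away, was well expressed, with means of 31.2 CPM in HMC-1.2, 40.9 and 41.4 in clones 1 and 2 and 46.8 in HMC-1.1. It differed between the clones by -0.02 ± 0.11 (log2, SE; adjusted p = 0.89), at the same time as BHLHE41 differed by 2.00.

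Around BHLHE40, the antisense transcript BHLHE40-AS1 had at most 19 counts. ITPR1 and EDEM1, a gene of endoplasmic reticulum quality control, were lower in clone 2 than in clone 1, by 0.39 ± 0.07 and 0.48 ± 0.04 on the log2 scale (adjusted p = 1.6e-04 and 6.5e-08), both under 1.5-fold.

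Over the 10 members, 1 was called in clone 1 against HMC-1.1 (1.01% of all genes tested), 1 in clone 2 against HMC-1.1 (8.19% of all genes) and 2 in clone 1 against clone 2 (12.6% of all genes). BHLHE41 was called in all 3 comparisons, and NR1D2 in the last. Counting the adjusted p alone, whatever the fold, 3 of 10 members passed in clone 1 against HMC-1.1 (18.7% of all genes), 2 in clone 2 against HMC-1.1 (36.0%) and 4 between the clones (50.2%). The members' count lay above the share of all genes in the first of these and below it in the others. The median log2 difference of the members was 0.03, 0.00 and -0.02 in these comparisons, beside 0.01, -0.01 and 0.01 over all genes. Groups without any overlap in CPM were seen for 3, 2 and 3 of the 10 members, beside 33.3%, 47.3% and 56.8% of all genes. A lack of overlap is therefore not rare, for these members or for other genes. The comparisons share libraries in pairs and are not independent of each other.

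**Figure D3:**
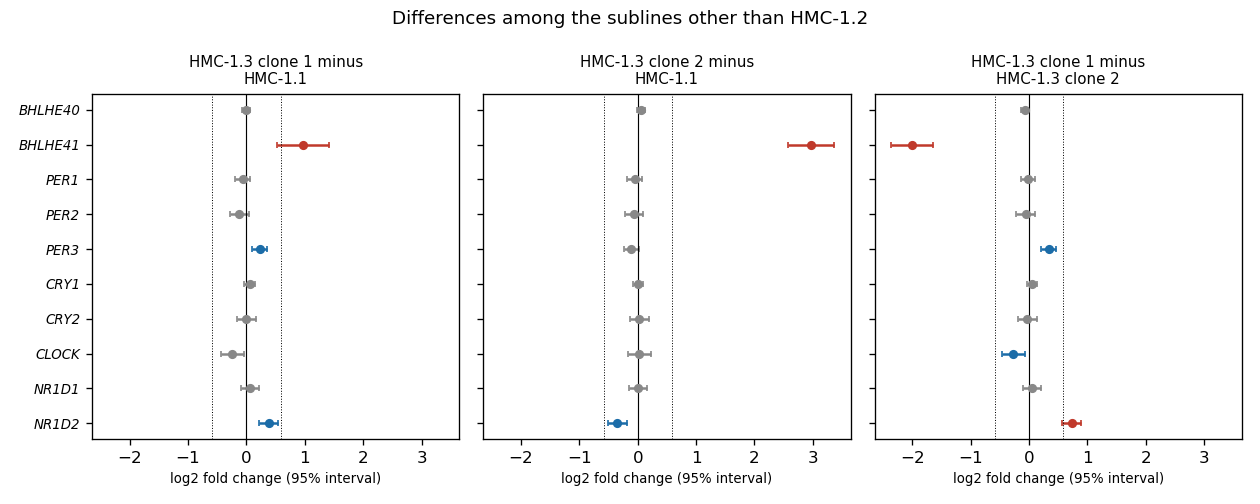
Log2 differences of the 10 genes with 95% intervals (horizontal axis) in the 3 comparisons without HMC-1.2, from edgeR over 3 libraries a group; red points passed the adjusted p and 1.5-fold (dotted lines), blue points the adjusted p alone, grey points neither. BHLHE41 lies at 0.97, 2.97 and -2.00, and NR1D2 at 0.38, -0.35 and 0.73.

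Set against HMC-1.2, 3 of 10 members lay past both thresholds in clone 1 (BHLHE41, PER3 and NR1D2, all higher; 20.0% of all genes), 1 in clone 2 (BHLHE41; 16.5% of all genes) and 2 in HMC-1.1 (BHLHE41 and NR1D2; 17.6% of all genes). The thresholds were those of the calls above, adjusted p included, and the place of BHLHE41 was fixed by the way it was chosen. Members whose libraries did not overlap HMC-1.2 in CPM numbered 8, 7 and 6 in the same order, beside 64.2%, 56% and 59.9% of all genes. These comparisons share the HMC-1.2 libraries and contain the contrast by which the genes were chosen, and nothing is read from the counts.

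NR1D2 (REV-ERB beta), a nuclear receptor that represses ARNTL, was the member that varied most after BHLHE41. It had 13.7, 13.2 and 11.9 CPM in HMC-1.1, 8.77, 8.09 and 8.21 CPM in HMC-1.2, 17.7, 15.5 and 17.3 CPM in clone 1, and 9.67, 9.62 and 11.05 CPM in clone 2. The 4 groups did not overlap, with clone 1 highest, then HMC-1.1, clone 2 and HMC-1.2. Clone 1 was higher than clone 2 by 0.73 ± 0.08 on the log2 scale (adjusted p = 6.7e-07) and higher than HMC-1.1 by 0.38 ± 0.08 (adjusted p = 0.0024). Clone 2 was lower than HMC-1.1, by 0.35 ± 0.08 (log2 difference -0.35, adjusted p = 0.0023), so the edited clones lay on opposite sides of HMC-1.1. The call between the clones was lost in the test against 1.5-fold itself and with limma on log2(FPKM + 1), where the difference was 0.55, and over 16 alternatives its adjusted p ran from 2.3e-17 to 0.16.

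NR1D1 (REV-ERB alpha), its paralog, varied less. It ran from 15.0 to 19.3 CPM over the 12 libraries, each group overlapped its neighbours in the order of means, and no difference outside HMC-1.2 passed the test (adjusted p from 0.55 to 1.00). Several members overlap a protein-coding gene on the opposite strand, NR1D1 THRA, NR1D2 NKIRAS1, PER3 UTS2 and CLOCK TMEM165, and PER1 overlaps an unnamed protein-coding gene on its own strand. The library kit keeps the strand, but the strand setting of the counting is not given in the sources used here, so reads of these partners cannot be told apart with certainty, and the group differences of NR1D2, PER3, CLOCK and PER1 carry this limit.

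PER3 followed the same order of groups as NR1D2. The 3 PER genes encode the proteins that, with the cryptochromes, close the main repressive loop. PER3 had 22.1, 23.3 and 23.8 CPM in HMC-1.1, 15.9, 16.1 and 15.2 CPM in HMC-1.2, 25.6, 28.4 and 26.8 CPM in clone 1, and 20.3, 20.6 and 23.0 CPM in clone 2. HMC-1.2 was below and clone 1 above every other library, and HMC-1.1 and clone 2 overlapped. Clone 1 was higher than clone 2 by 0.34 ± 0.06 (log2, SE; adjusted p = 1.4e-04) and than HMC-1.1 by 0.23 ± 0.06 (adjusted p = 0.013), both under 1.5-fold. Against HMC-1.2 the differences were 0.78 ± 0.06 for clone 1, 0.55 ± 0.06 for HMC-1.1 and 0.44 ± 0.06 for clone 2.

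PER1, which signals such as cAMP and glucocorticoid induce quickly, ran the other way with respect to HMC-1.2. It had 38.98, 36.3 and 43.2 CPM there and 27.3 to 31.1 CPM in the other 9 libraries, all of them lower. In FPKM the groups overlapped, with HMC-1.2 replicate 2 at 9.9, below clone 1 replicate 1 (10.42) and clone 2 replicate 2 (10.06). FPKM per CPM of PER1 varied 1.35-fold, and clone 1 against HMC-1.2 was -0.27 on log2(FPKM + 1). Relative to HMC-1.2, log2 differences were -0.38 ± 0.06 for HMC-1.1, -0.44 ± 0.06 for clone 1 and -0.43 ± 0.06 for clone 2. PER2 had 21.1 to 22.8 CPM in HMC-1.2 and 16.1 to 21.1 CPM elsewhere, with -0.16 ± 0.08, -0.28 ± 0.08 and -0.23 ± 0.08 in the same order, and each group overlapped its neighbours in the order of means. Thus within the PER family the HMC-1.2 level was the highest of the 4 groups for PER1 and PER2 and the lowest for PER3. Outside HMC-1.2 neither PER1 nor PER2 differed by an amount that passed the test (adjusted p from 0.31 to 0.84).

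The cryptochromes CRY1 and CRY2, the strongest repressors of CLOCK-ARNTL, differed in level but little between groups. Per length, CRY1 was the second most abundant member by median (10.7 to 14.4 FPKM, median 13.4), above PER1 (7.52 to 14.1 FPKM, median 9.43), and CRY2 ran from 3.34 to 4.09 FPKM. CRY1 was 33.5, 32.2 and 33.0 CPM in HMC-1.2 and 36.4 to 40.2 CPM in the other libraries, all of them higher, by 0.20 ± 0.04 for HMC-1.1, 0.26 ± 0.04 for clone 1 and 0.21 ± 0.04 for clone 2 (log2, SE). CRY2 ran from 12.9 to 16.1 CPM with all groups overlapping.

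CLOCK, the histone acetyltransferase and DNA-binding partner of ARNTL, had 17.1, 17.1 and 15.4 CPM in HMC-1.1, 19.1, 16.5 and 19.4 CPM in HMC-1.2, 13.1, 12.47 and 16.5 CPM in clone 1, and 15.5, 18.1 and 16.9 CPM in clone 2. Clone 1 was lower than clone 2 (log2 difference -0.27 ± 0.09, adjusted p = 0.027), under 1.5-fold and with overlapping libraries, since replicate 3 of clone 1 lay within the clone 2 range. FPKM per CPM of CLOCK varied 1.91-fold among libraries.

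For the members that did not pass the adjusted p, the 95% intervals of the log2 differences lay between -0.44 and 0.21 for the 7 members in clone 1 against HMC-1.1, between -0.24 and 0.22 for the 8 in clone 2 against HMC-1.1, and between -0.22 and 0.21 for the 6 between the clones. None of these intervals reached 1.5-fold in either direction, at these depths and with 3 libraries a group.

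The wider clock was covered by a list of 26 further genes, of which 25 were tested and FBXL21P had 0 counts. No other clock gene was called in clone 1 against HMC-1.1 by edgeR, with 10 of 25 at an unadjusted p under 0.05, 8 past the adjusted p alone, 0 called by DESeq2 and 0 by limma on log2(FPKM + 1), beside 1.01% of all genes called and 18.7% past the adjusted p. In clone 2 against HMC-1.1 edgeR again called 0, with 11 at an unadjusted p under 0.05, 11 past the adjusted p alone, 1 called by DESeq2 and 0 by limma, beside 8.19% of all genes called and 36.0% past the adjusted p. Between the clones 3 were called, DBP and RORB higher and ARNTL2 lower in clone 1, beside 12.6% of all genes.

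DBP, a PAR bZIP factor whose rhythm is a classic output of E boxes, took the order of NR1D2 and PER3. It had 28.6, 26.9 and 29.5 CPM in HMC-1.1, 19.5, 18.9 and 17.8 CPM in HMC-1.2, 35.5, 37.8 and 34.1 CPM in clone 1, and 21.5, 22.8 and 22.8 CPM in clone 2, with no overlap between groups. Clone 1 was higher than clone 2 by 0.68 ± 0.05 (log2, SE; adjusted p = 1.6e-08; over the 16 alternatives, up to 0.19 in the test against 1.5-fold itself) and than HMC-1.1 by 0.34 ± 0.05 (adjusted p = 3.1e-04), and clone 2 was lower than HMC-1.1 (-0.34 ± 0.05, adjusted p = 9.5e-05). NFIL3, the bZIP repressor that competes with DBP for its sites, was higher in clone 1 than in HMC-1.1 (0.44 ± 0.06, adjusted p = 1.6e-04), by less than 1.5-fold. It did not take the group order of DBP. NFIL3 was lowest in HMC-1.1 (19.1 to 19.5 CPM), below clone 2 (19.8 to 23.7 CPM) and HMC-1.2 (22.0 to 24.2 CPM). TEF and HLF, the other PAR bZIP factors, had no difference past the adjusted p among these sublines.

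The activators split by gene. ARNTL (BMAL1) itself had 25.7, 26.1 and 27.7 CPM in HMC-1.2 and 21.7 to 24.7 CPM in the other 9 libraries, all of them lower. In FPKM the libraries overlapped, with 11.3 to 12.3 in HMC-1.2 and 9.94 to 12.1 elsewhere. No ARNTL difference outside HMC-1.2 passed the test. ARNTL2 (BMAL2) had 25.1, 24.7 and 25.3 CPM in clone 2 and 15.1 to 20.6 CPM in the other 9 libraries, and clone 1 was lower than clone 2 by 0.66 ± 0.06 (log2 difference -0.66, adjusted p = 8.1e-08). In FPKM that difference was smaller and did not pass the test (-0.25 on log2(FPKM + 1), adjusted p = 0.11; over the 16 alternatives, from 4.7e-21 to 0.45). ARNTL2 lies on the same chromosome as BHLHE41, with 1207799 bases between their starts. Both genes were highest in clone 2 in CPM, and ITPR2 between them was not. The genes from ITPR2 to ARNTL2 were not examined, and a common cause was not tested.

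RORA and RORB, receptors that activate ARNTL at the sites where the REV-ERB receptors repress it, were higher in HMC-1.2 than in the other groups. Their levels per length were low even there, at 0.1 to 0.32 FPKM for RORA and 1.48 to 1.57 FPKM for RORB. RORA had 23, 25 and 25 counts in HMC-1.2 and at most 2 counts in every other library, at least 9.41-fold higher than in HMC-1.1, at least 9.11-fold higher than in clone 1 and at least 8.86-fold higher than in clone 2, against a floor of 3 counts per library. RORB had 14.2, 14.1 and 14.8 CPM in HMC-1.2, 3.13, 3.24 and 4.21 CPM in HMC-1.1, 4.39, 3.29 and 3.92 CPM in clone 1, and 2.16, 2.67 and 2.61 CPM in clone 2. Its difference between the clones was 0.63 ± 0.14 (adjusted p = 0.0012), and the call was lost without replicate 1 of clone 1 (0.52, adjusted p = 0.010) or without replicate 1 of clone 2 (0.55, adjusted p = 0.0070). Over the 16 alternatives the adjusted p of RORB ran from 3.3e-05 to 1.

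**Figure D4:**
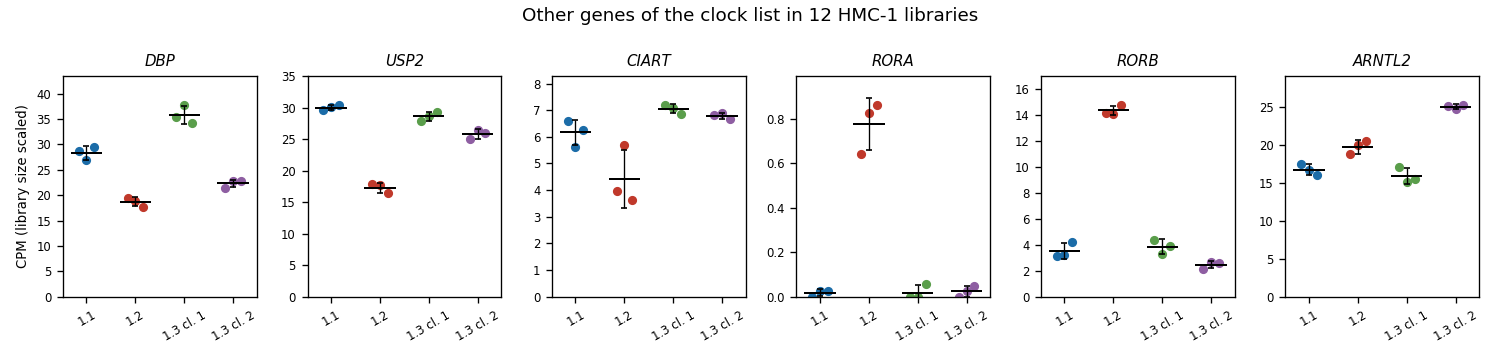
Level of 6 further clock genes in each library (CPM, linear axes from 0), with points for libraries, lines for group means and bars for the SD over 3 libraries; group names are shortened as for the 10 genes. RORA and RORB are highest in HMC-1.2, DBP in clone 1 and ARNTL2 in clone 2, at 24.7 to 25.3 CPM.

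As a description, USP2 and CIART are given among several further genes of the list that were low in HMC-1.2. Below every other library in CPM there were also NAMPT (116.3 to 117.4 against 128.1 to 144.3) and KLF10 (93.4 to 100.5 against 101.1 to 121.0). The same held for CSNK1D (124.0 to 126.3 against 128.65 to 140.6 CPM). The ubiquitin protease gene USP2 had 16.4 to 17.8 CPM in HMC-1.2 and 25.0 to 30.5 CPM elsewhere. CIART, a repressor of CLOCK-ARNTL, had 3.96, 5.68 and 3.62 CPM in HMC-1.2 against 5.64 to 7.20 CPM elsewhere, with overlap. Over the list, 3 genes lay higher and 2 lower past both thresholds in clone 1 against HMC-1.2, 1 and 2 in clone 2, and 2 and 2 in HMC-1.1, beside 20.0%, 16.5% and 17.6% of all genes, and nothing is read from these counts. The lower genes were RORA and RORB in all 3 comparisons, which share the HMC-1.2 libraries. Only the HMC-1.2 libraries gave RORA enough counts to be tested, so its place among the lower genes was fixed by the filter. Of the 7 tested genes for kinases and ubiquitin ligases that act on PER and CRY proteins, 5 passed the adjusted p alone between the clones, 1 higher and 4 lower in clone 1, all under 1.5-fold, beside 50.2% of all genes. The largest of these differences was that of DDB1, a ubiquitin ligase adaptor (-0.23 ± 0.03, adjusted p = 3.6e-06).

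The 5 genes whose levels followed BHLHE41 most closely over the 12 libraries, by Pearson's r of log2 CPM among the 13116 genes whose mean reached 1 CPM, were SIGLEC14 (r = 0.996), YAP1 (0.993), MOCOS (0.992), IMPACT (0.991) and RTN4 (0.990). SIGLEC14 is near-identical to SIGLEC5 over part of its length, so its counts are uncertain. These genes had the group order of BHLHE41 but a far narrower range, YAP1 for example going from 6.03 to 6.39 CPM in HMC-1.2 to 15.5 to 17.9 CPM in clone 2. For BHLHE40 the 5 closest were NDUFAF5 (0.967), PACS2 (0.956), CD274 (0.938), ARG2 (0.935) and SLC6A8 (0.934). CD274, the gene of PD-L1, had 5 to 8 counts in HMC-1.2 and 92 to 104 in clone 2. With 12 libraries in 4 groups, r describes mainly the group means, and only 1 of the BHLHE41 list and 3 of the BHLHE40 list stayed among the closest 5 with Spearman's rho, and 0 of either in log2(FPKM + 1).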

How the data were processed

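Polyadenylated RNA of 12 HMC-1 libraries was analysed from a table of expected counts and a table of FPKM. Per the labels and the methods of the study, the authors used cutadapt 2.10 for trimming and STAR 2.5.3 for alignment (hg38), and deposited expected counts of RSEM 1.3.0, which are not normalized (7.39% are not whole). The authors also deposited FPKM, expressed per length of transcript and per size of library. The strand setting of the counting is not given in the sources used here.

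Groups came from the labels. The members and lists were chosen with earlier results of these data known. Counts were rounded and tested with edgeR 4.0.16 (R 4.3.3; quasi-likelihood test, TMM, filterByExpr, 4 groups in 1 model), with Benjamini-Hochberg adjustment over 15944 genes. CPM use TMM library sizes. The text names the 10 members, clock list genes past both thresholds or with a role beside them, protein-coding genes within 500 kb of the paralogs, and the 5 genes most like each by r (log2 CPM, prior count 3). NFIL3, TEF, HLF, ARNTL, CSNK1E and the antisense and marker genes were named after their values were seen. A few genes within these rules are not reported here. Gencode 44 held 57799 of 58381 identifiers. The scripts were tested on simulated data. Replicates differed beyond sampling noise (chi-square per degree of freedom 2.83 to 7.67). The Poisson interval and the count floors cover counting error only, whereas intervals of log2 differences come from the edgeR fit and include the spread between libraries.

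Alternatives were DESeq2 1.42.0, no filter, a model of only the groups compared, a filter of 0.5 CPM in at least 1 library, a replicate block, a term for libraries labelled as resent, glmTreat, limma 3.58.1 on log2(FPKM + 1) and log2(FPKM + 0.1), upper quartile scaling and leaving out each library.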

Additional observations from a re-analysis of the deposited data

Results flagged for a closer look

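The HMC-1.3 clones, which the labels give the same parental line and KIT genotype, differed from each other in 2 of the 10 members by edgeR (3 libraries a group), beside 12.6% of all genes, and in 1 member with glmTreat or with limma on log2(FPKM + 1). BHLHE41 differed by -2.00 on the log2 scale (adjusted p = 4.6e-08), all 3 clone 2 libraries lying above all 3 of clone 1. NR1D2 differed by 0.73 (adjusted p = 6.7e-07), all 3 clone 1 libraries lying above all 3 of clone 2, and this call was lost with glmTreat against 1.5-fold (adjusted p = 0.16) and with limma on log2(FPKM + 1), where the difference of 0.55 lay under 1.5-fold. Each clone is a single clone, so the clone and any event in its derivation cannot be told apart.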

How the results depend on the processing

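Comparisons with HMC-1.2 are description only here too. With DESeq2, no filter, the CPM filter, only the groups compared, a replicate block, the resent term or upper quartile scaling, the number of members called was as reported in all 6 comparisons. It changed with glmTreat to 1 for HMC-1.1 against HMC-1.2, 0 for clone 1 against HMC-1.1 and 1 for clone 1 against clone 2, and with limma on log2(FPKM + 1) to 0, 0 and 1 in the same comparisons. Leaving out each library gave 1 to 2 members for HMC-1.1 against HMC-1.2, the lower without HMC-1.1 replicate 1. All genes called fell with glmTreat to 1932, 1612 and 1618 for clone 1, clone 2 and HMC-1.1 against HMC-1.2, 9 and 552 for clone 1 and clone 2 against HMC-1.1 and 837 between the clones, and with limma on log2(FPKM + 1) to 1902, 1453, 1514, 61, 566 and 969 in that order, against 3193, 2630, 2803, 161, 1306 and 2013. glmTreat tests against the fold itself, and the pseudocount shrinks low genes. For clone 1 against HMC-1.1, DESeq2 called 93 genes and leaving out each library 107 to 197, the lowest without clone 1 replicate 2; the cause was not tested. No log2 fold change of the text changed sign. FPKM and CPM gave the same highest and lowest group for 7 of 10 members. The BHLHE41 share of BHLHE40 in clone 1 was 0.747% to 1.27% when a library was left out, an alternative chosen after seeing the data, as were those for the clock list and the counts by adjusted p alone. Between clone 2 and HMC-1.1, 1 clock list gene was called in 6 alternatives in place of 0. Libraries of the same number deviated together weakly at most (18 pairs, r from -0.04 to 0.10, median 0.03, 0 over 0.1). Pairs of unlike number had r from -0.11 to 0.08 (36 pairs, median -0.01). A replicate block gave 165 genes for clone 1 against HMC-1.1 and 1994 between the clones, with 1 and 2 members. BHLHE41, with at most 53 counts outside clone 2, is limited by depth.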
